A study of Rattus norvegicus with 42 samples.

Results

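Perineuronal nets are lattices of extracellular matrix that wrap the cell bodies and proximal dendrites of certain neurons, above all the fast-spiking interneurons that contain parvalbumin. Their backbone is hyaluronan, a long sugar chain. The lecticans (aggrecan, brevican, neurocan and versican) are chondroitin sulfate proteoglycans that bind hyaluronan at one end and tenascin at the other, and link proteins fasten the bond to hyaluronan. In the rodent hippocampus this matrix is assembled during the first postnatal weeks, and its formation is known for accompanying the close of juvenile plasticity.

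The transcripts examined were those whose gene symbol is Acan, Bcan, Ncan, Vcan, Hapln1, Hapln2, Hapln4, Tnr or Tnc, a list of 9 symbols. Of these, 8 symbols had 12 RefSeq transcripts among the 15516 in the count table, and aggrecan (Acan) was not analysed here. A filter on low counts kept 11 of the 12 transcripts, of 7 symbols, among 13062 transcripts tested. Hapln2, a link protein of the nodes of Ranvier on myelinated axons, was the one below the filter, with 12 counts summed over the VEH animals, 14 over the PB animals, 19 over the LEV animals and at most 4 in any animal. No fold change is given for it.

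The RNA came from hippocampi of male Sprague Dawley rat pups that received a single injection on postnatal day 7 and were killed 72 hours later. The 3 groups were saline vehicle (VEH, 13 animals analysed), phenobarbital at 75 mg/kg (PB, 14 animals) and levetiracetam at 200 mg/kg (LEV, 14 animals), with 1 library per animal and no more than 1 pup of a litter in a group. Phenobarbital acts on GABA-A receptors, levetiracetam binds the synaptic vesicle protein SV2A, and both are given for neonatal seizures. The sample codes have 2 forms: in every group, animals 1 to 6 carry the first and animals 7 to 14 the second. The labels do not say what the forms mark, although the animals were bought in 2 orders, so the code form entered every main model as a term. The main differences of the net transcripts are also given within each form. Those of the related and marker lists are not.

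Each library held 9499492 to 14488134 estimated counts, and 1 further VEH animal that its label marks as excluded was left out of all comparisons. The paper excluded 1 control sample because its average coverage was well above, and its genomic coverage well below, those of the other samples. The values below are normalized counts, that is, counts scaled to an effective library of 11405252. Of 7 markers of hippocampal neurons all 7 were in the table, 1 of them at a median under 10, and their summed level lay between 25033 and 36095 over the 41 animals. The summed level of 11 choroid plexus markers ranged from 124.4 to 85691. Its median was 2829 for VEH, 8464 for PB and 21645 for LEV, and none of its 11 genes passed the test in any comparison.

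The upstream sequences of Hapln1, Vcan and Tnc are shown because these 3 genes carried the differences between treatments and were also correlated with each other over the 41 animals. For Hapln1 and Tnc, r was 0.65 in the second code form and only 0.10 in the first. Each line is the 250 bases before the annotated start, 5′ to 3′ on the strand of the gene, from RefSeq on the build GRCr8. The counts were made on rn6, so the sequences are tied to them by gene name only. Capitals mark matches on either strand to the TATA forms TATAAA and TATATAA, the GC box GGGCGG and ACAAAG, a form of the SOX site.
Hapln1, chr2:22366717-22366966, plus strand: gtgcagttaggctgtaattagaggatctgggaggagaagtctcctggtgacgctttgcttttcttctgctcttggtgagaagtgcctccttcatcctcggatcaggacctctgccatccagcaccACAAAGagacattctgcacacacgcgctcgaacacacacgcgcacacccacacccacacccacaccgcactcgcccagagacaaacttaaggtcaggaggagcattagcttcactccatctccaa
Vcan, chr2:22595858-22596107, minus strand: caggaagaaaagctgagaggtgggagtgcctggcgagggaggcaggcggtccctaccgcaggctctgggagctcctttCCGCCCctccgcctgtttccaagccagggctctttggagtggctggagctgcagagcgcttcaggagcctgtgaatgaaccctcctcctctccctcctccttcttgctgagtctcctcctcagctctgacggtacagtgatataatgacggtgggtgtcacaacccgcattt
Tnc, chr5:82476132-82476381, minus strand: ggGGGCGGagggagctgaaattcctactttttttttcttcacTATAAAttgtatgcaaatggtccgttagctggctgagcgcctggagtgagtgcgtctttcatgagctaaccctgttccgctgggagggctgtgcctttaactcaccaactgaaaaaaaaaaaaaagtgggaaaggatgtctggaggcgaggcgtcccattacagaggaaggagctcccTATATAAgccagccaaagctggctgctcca
RefSeq lists 2 start windows of Vcan 98 bases apart, and the one shown corresponds by this offset to the transcript ends of NM_001170558, NM_001170559 and NM_001170560.

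No marked motif was found in all 3 sequences. The Tnc window held both TATA forms, of which TATAAA was found in 12.9% and TATATAA in 3.42% of 33469 windows of this length. GGGCGG, present in the Tnc and Vcan windows, was found in 30.5% of all windows and ACAAAG, present in that of Hapln1, in 16.3%. Neither the AP-1 site TGANTCA (6.34% of windows) nor the cyclic AMP element TGACGTCA (1.59%), both known from genes that respond to neuronal activity, was matched in any of the 10 windows of the 9 symbols. A match or its absence describes only the letters of these windows.

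Hapln1, Hapln2 and Hapln4 each lie beside a lectican gene. On rn6, Hapln1 (chr2:18354542-18416469) is followed by Vcan (chr2:18490102-18587341) after 73632 bases, Ncan (chr16:21050243-21076708) by Hapln4 (chr16:21081377-21089509) after 4668 bases, and Bcan (chr2:187359675-187372653) by Hapln2 (chr2:187396347-187401778) after 23693 bases. No other symbol of the table lies in between. The tenascin genes Tnr (chr13:77602249-77678386) and Tnc (chr5:79790275-79849866) stand on other chromosomes.

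Of the lecticans, brevican varied little from animal to animal. Bcan NM_001033665 lay between 5784 and 7048 in VEH animals (median 6484), between 5568 and 7267 in PB animals (median 6643) and between 5508 and 7002 in LEV animals (median 6273). The 3 groups overlapped almost wholly. Its residual SD between animals, after treatment and code form, was 0.10 on the log2 CPM scale, lower than in all but 18.9% of tested transcripts. This transcript took 85.6 to 91.8% of the Bcan counts in each animal (mean 89.1%, n = 41) and the shorter NM_012916 the rest, with 555.5 to 972.8 counts after VEH, 708.9 to 982.1 after PB and 572.4 to 924.5 after LEV. No transcript lengths were used, so levels are compared within a gene and not between genes.

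Neurocan (Ncan NM_031653), a lectican abundant in the developing brain, had 8196 to 11739 counts in VEH (median 10192), 8033 to 11602 in PB (median 9609) and 7462 to 10408 in LEV animals (median 9182). Versican, which in brain is made by oligodendrocyte precursors and astrocytes among others, was represented by 4 transcripts that share most of their exons. The estimation algorithm divides shared reads among them, so the split is uncertain. NM_001170560 took 54.4% ± 5.42 (SD, n = 41) of the Vcan counts, with 768.6 to 1126 in VEH (median 941.7), 755.8 to 1269 in PB (median 980.1) and 555.5 to 1300 in LEV animals (median 774.4). The LEV animals spread most widely. NM_001170559 took 5.79% ± 3.92 (SD, n = 41), its counts ran from 14.67 to 204.4 over all 41 animals, and its residual SD of 0.96 exceeded that of 98.4% of tested transcripts.

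The link protein Hapln1 (NM_019189), the form found in nets throughout the brain, had 726.9 to 898.8 counts in VEH (median 783.4), 601.1 to 915.6 in PB (median 662.3) and 547.5 to 932.8 in LEV animals (median 771.7). The median of the PB animals thus lay below every VEH animal. Hapln4 (NM_001108398), the brain link protein that partners brevican at inhibitory synapses, had 686.4 to 1758 in VEH (median 1102), 524.7 to 1390 in PB (median 825.5) and 716.7 to 1614 in LEV animals (median 937.5). Its residual SD was 0.34, above that of 82.8% of tested transcripts.

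Tenascin R (Tnr NM_013045), which crosslinks lecticans and is made largely by cells of the oligodendrocyte lineage and some interneurons, had 501.3 to 1056 counts in VEH (median 831.9), 623.4 to 1257 in PB (median 956.3) and 556.7 to 1083 in LEV animals (median 782.4). Tenascin C (Tnc NM_053861), a matrix glycoprotein of immature astrocytes and radial glia, had 1115 to 1699 in VEH (median 1389), 1169 to 2444 in PB (median 1499) and 949.9 to 1582 in LEV animals (median 1221). The PB and LEV groups were shifted apart and still overlapped between 1169 and 1582.

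**Figure D1:**
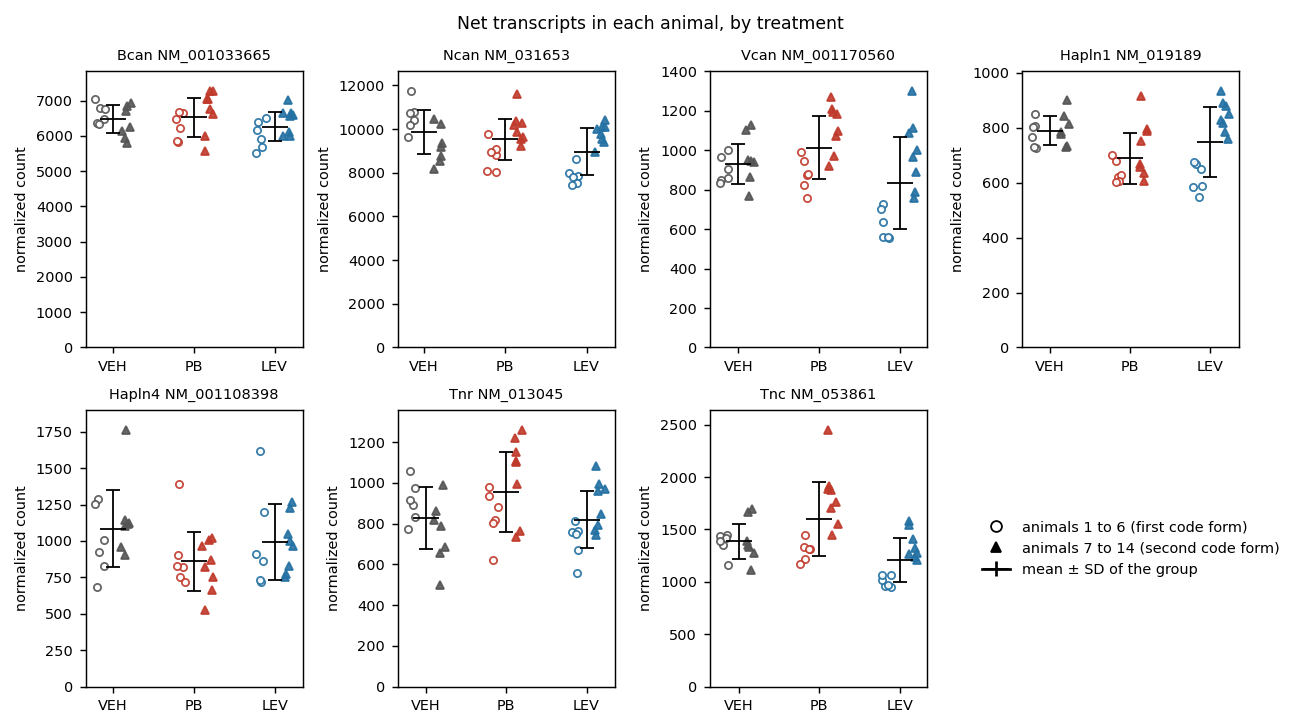
Normalized counts (vertical axes, from 0) of the most abundant tested transcript of each gene in every animal, by treatment, with open circles for animals 1 to 6, triangles for animals 7 to 14 and black marks for the mean ± SD of each group. For Ncan, Vcan, Hapln1 and Tnc the open blue circles of LEV animals 1 to 6 lie below the open grey circles of VEH animals 1 to 6, while the triangles overlap.

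After PB, 1 of the 11 net transcripts differed from VEH: Hapln1 was lower. Its mean fell from 789.2 ± 53.5 (SD, n = 13) to 689.3 ± 92.7 (SD, n = 14), a difference of -13.4% (95% interval -20.1 to -6.19%), and in 12 of 14 PB animals the level was under the mean of VEH animals with the same code form. The log2 fold change was -0.21 ± 0.057 (SE), with an adjusted p of 0.0246 (quasi-likelihood test of edgeR, adjusted over all transcripts by the method of Benjamini and Hochberg). In whole tissue, fewer cells of a type and less RNA per cell cannot be told apart. Over all transcripts 5.39% passed this test, 3.46% lower and 1.93% higher after PB, so that 1 of 11 is no result about the net genes as a group. The Hapln1 difference did not reach the fold limit that the study also set.

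The call for Hapln1 was kept in all 41 fits that left out 1 animal, with adjusted p between 0.0116 and 0.0490 by edgeR. It was lost without the code-form term (adjusted p = 0.114 by edgeR), in animals 7 to 14 alone (adjusted p = 0.337 by edgeR) and with the excluded VEH animal put back (adjusted p = 0.0806 by edgeR), with a lower value in PB in each.

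No other net transcript passed the test between PB and VEH. Hapln4 came nearest, at 860.2 ± 204 (SD, n = 14) in PB against 1085 ± 263 (SD, n = 13) in VEH, a log2 fold change of -0.33 ± 0.13 (SE) and an adjusted p of 0.109 by edgeR's quasi-likelihood test. In 13 of 14 PB animals it was under the mean of the VEH animals sharing their code form. Hapln3 (NM_001008559), a further link protein that is not among the 9 symbols, had 18.65 ± 8.11 (SD, n = 14) in PB against 24.51 ± 5.28 (SD, n = 13) in VEH, a log2 fold change of -0.40 ± 0.18 (SE) with an adjusted p of 0.209 by edgeR.

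Both tenascins had higher means after PB, neither past the threshold. The log2 fold change was 0.17 ± 0.071 (SE) for Tnc and 0.19 ± 0.099 (SE) for Tnr, with adjusted p of 0.151 and 0.273 by edgeR. For the main Bcan transcript the interval of the difference was narrow, from -0.07 to 0.08 on the log2 scale, and for Ncan it ran from -0.17 to 0.05. The 4 Vcan transcripts had log2 fold changes from -0.02 to 0.22, and their summed count differed by 0.14 ± 0.069 (SE, adjusted p = 0.215 by edgeR on counts summed per symbol).

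After LEV, 0 of the 11 net transcripts differed from VEH by edgeR's quasi-likelihood test, in which 0.00766% of all transcripts passed. DESeq2 with the same design also called 0. At an unadjusted p under 0.05 there were 3, against 5.84% of all transcripts: Tnc, Ncan and Vcan NM_001170560, all with lower means after LEV. Tnc had 1205 ± 210 (SD, n = 14) against 1388 ± 165 (SD, n = 13), a log2 fold change of -0.23 ± 0.071 (SE). For Ncan the log2 fold change was -0.15 ± 0.055 (SE) and for Vcan NM_001170560 -0.21 ± 0.080 (SE). The adjusted p values of these 3 were 0.526, 0.687 and 0.708 by edgeR.

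The direct comparison of the drugs separated 2 of the 11 net transcripts, both higher after PB than after LEV, where 4.45% of all transcripts passed, 1.67% higher and 2.78% lower. At an unadjusted p under 0.05 there were 4 of 11, against 19.6%. Tnc had 1599 ± 353 (SD, n = 14) after PB and 1205 ± 210 (SD, n = 14) after LEV, and all 14 PB animals lay above the LEV mean of their code form. The difference was 32.5% (95% interval 20.2 to 45.9%), a log2 fold change of 0.41 ± 0.069 (SE), with an adjusted p of 0.00053 by edgeR's quasi-likelihood test. It was the only net transcript past both the adjusted p and the fold limit of the study, which 0.582% of all transcripts passed together. The VEH mean of 1388 lay between those of the drugs, and neither drug differed from it past the threshold.

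Vcan NM_001170560 was the other, at 1013 ± 159 (SD, n = 14) after PB and 832.2 ± 234 (SD, n = 14) after LEV, with 12 of 14 PB animals above the LEV mean of their code form. Its log2 fold change was 0.30 ± 0.078 (SE), with an adjusted p of 0.0206 by edgeR. The Vcan counts summed over transcripts, which do not depend on how shared reads were split, were 1854 ± 280 (SD, n = 14) after PB and 1569 ± 282 (SD, n = 14) after LEV. They differed by 0.25 ± 0.067 (SE) on the log2 scale, with an adjusted p of 0.0255 by edgeR on counts summed per symbol.

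The Tnc difference between the drugs was called in all 41 fits without 1 animal and under each of 19 other settings, with log2 fold changes from 0.36 to 0.43 and adjusted p of at most 0.0230. That of Vcan NM_001170560 was called in the same 41 fits and under 13 of 18 other settings. It was lost without the code-form term, in animals 7 to 14 alone, with the excluded VEH animal put back and with the level of mature oligodendrocyte markers in the model (adjusted p = 0.124, 0.396, 0.0526 and 0.122 by edgeR), and it did not reach the fold limit.

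**Figure D2:**
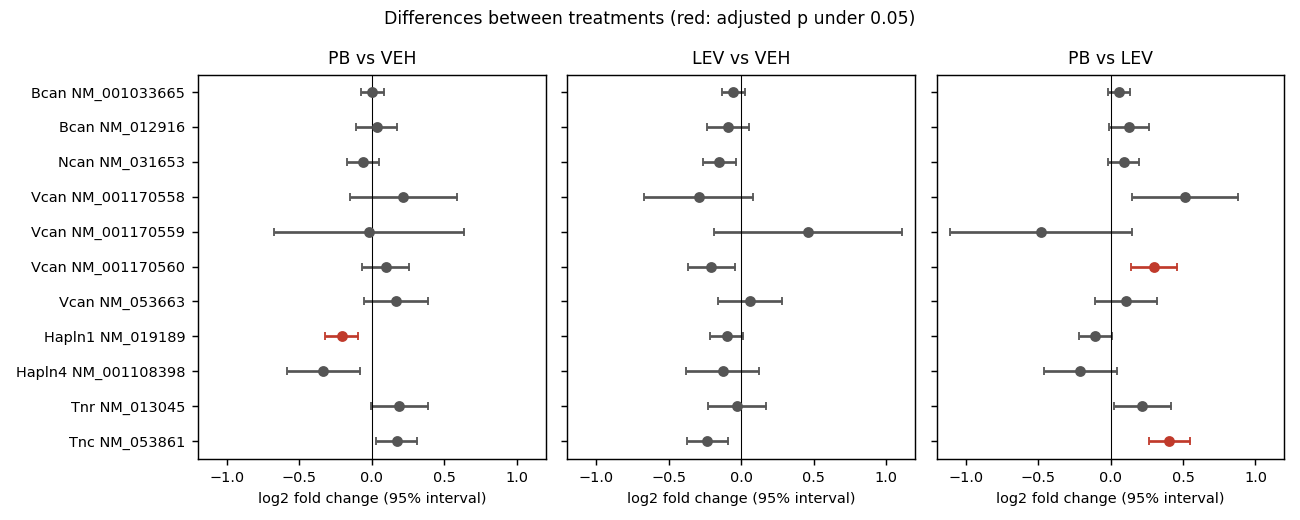
Log2 fold change (horizontal axis) with its 95% interval for the 11 tested net transcripts in the 3 comparisons, with transcripts at an adjusted p under 0.05 in red. Hapln1 is red in the PB and VEH comparison, no transcript in the LEV and VEH comparison, and Tnc and Vcan NM_001170560 in the PB and LEV comparison.

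The net transcripts also differed by code form. Over the treatments, 4 of 11 were higher in animals 7 to 14 than in animals 1 to 6, where 15.1% of all transcripts were higher and 30.2% differed in either direction: Vcan NM_001170558, Vcan NM_001170560, Hapln1 and Tnc. Tnc had a mean of 1224 in the 18 animals of the first form and 1533 in the 23 of the second, a log2 difference of 0.32 ± 0.058 (SE, adjusted p = 3.39e-05 by edgeR). The corresponding means of Hapln1 were 679.5 and 788.4. For all 4 transcripts the mean rose less from the first form to the second in VEH animals than after either drug. In VEH animals the means were 1368 and 1404 for Tnc, 780.7 and 796.4 for Hapln1 and 900.9 and 957.3 for Vcan NM_001170560. For Vcan NM_001170558 they were 273.1 and 327.4. After PB the Tnc means were 1300 and 1824 and those of Hapln1 638.8 and 727.2. After LEV they were 1005 and 1355 for Tnc and 618.9 and 842.7 for Hapln1. The shift in VEH animals alone was not tested.

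Within the first form, animals given LEV had less of 4 net transcripts than every VEH animal. For Ncan the 6 LEV animals ran from 7462 to 8652 and the 6 VEH animals from 9616 to 11739. For Tnc the ranges were 949.9 to 1068 and 1162 to 1444, for Hapln1 547.5 to 675.7 and 726.9 to 850.1, and for Vcan NM_001170560 555.5 to 729.8 and 835.5 to 999.4. Over all transcripts, 3.17% had LEV and VEH ranges that did not overlap in these 12 animals. In animals 7 to 14 no net transcript did, and 0.0536% of all transcripts.

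The difference between the forms was tested as an interaction in a model with a mean for each treatment and form. The LEV and VEH difference changed between the forms for 3 of 11 net transcripts, against 0.842% of all transcripts. For Ncan the log2 fold change was -0.43 ± 0.057 (SE) in animals 1 to 6 and 0.08 ± 0.051 (SE) in animals 7 to 14, a change of 0.51 ± 0.076 (SE, adjusted p = 0.000136 by edgeR). For Hapln1 it was -0.34 ± 0.073 (SE) and 0.08 ± 0.065 (SE), a change of 0.42 ± 0.098 (SE, adjusted p = 0.0237 by edgeR). For Vcan NM_001170560 it was -0.53 ± 0.10 (SE) and 0.05 ± 0.091 (SE), a change of 0.58 ± 0.14 (SE, adjusted p = 0.0260 by edgeR).

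The call for Ncan held in all 41 fits without 1 animal, while the other calls were lost in some of them, Hapln1 in 5 and Vcan NM_001170560 in 8, with adjusted p up to 0.0707 and 0.0664. The animals whose removal ended both calls were VEH 1 and LEV 5, 6 and 7. Without VEH 3 the Hapln1 call alone was lost, and without VEH 6, VEH 9, LEV 4 or LEV 9 that of Vcan NM_001170560 alone. With the excluded VEH animal put back, no interaction of a net transcript passed the test.

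The PB and VEH difference changed between the forms for 1 of 11 net transcripts, against 0.0689% of all. Ncan had a log2 fold change of -0.27 ± 0.057 (SE) in animals 1 to 6 and of 0.13 ± 0.051 (SE) in animals 7 to 14, a change of 0.39 ± 0.076 (SE) with an adjusted p of 0.0203 by edgeR. Without VEH animal 2 this adjusted p was 0.0565. The VEH animals are shared by both interactions, and their Ncan mean was 10585 in the first form and 9245 in the second.

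The mean of Hapln1 was lower after PB in both forms, with log2 fold changes of -0.29 ± 0.073 (SE) in animals 1 to 6 and -0.13 ± 0.065 (SE) in animals 7 to 14, and the change between forms did not pass the test (0.16, adjusted p = 0.580 by edgeR). In the first form the PB animals (601.1 to 701.4) all lay below the VEH animals (726.9 to 850.1), and the ranges of 1.36% of all transcripts did not overlap, in either direction. In the second form the ranges overlapped.

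The Tnc difference between PB and LEV was nearly alike in the forms, 0.37 ± 0.092 (SE) in animals 1 to 6 and 0.43 ± 0.079 (SE) in animals 7 to 14, and the interval of the change ran from -0.19 to 0.30. Measured against VEH, the same separation looked different in the forms. In animals 1 to 6 the Tnc value was -0.07 ± 0.091 (SE) after PB and -0.45 ± 0.092 (SE) after LEV. In animals 7 to 14 it was 0.38 ± 0.082 (SE) after PB and -0.05 ± 0.082 (SE) after LEV. Neither change between forms passed the test (adjusted p = 0.135 for PB and 0.121 for LEV by edgeR). Between PB and LEV, 0 of the 11 net transcripts and 0.023% of all transcripts had a difference that changed between the forms, and at an unadjusted p under 0.05 there were 2, Hapln1 and Vcan NM_001170560, against 6.91% of all transcripts. The ranges of PB and LEV did not overlap in animals 1 to 6 for Tnc and Vcan NM_001170560, as for 1.68% of all transcripts, and for no net transcript in animals 7 to 14, where 0.329% did so.

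**Figure D3:**
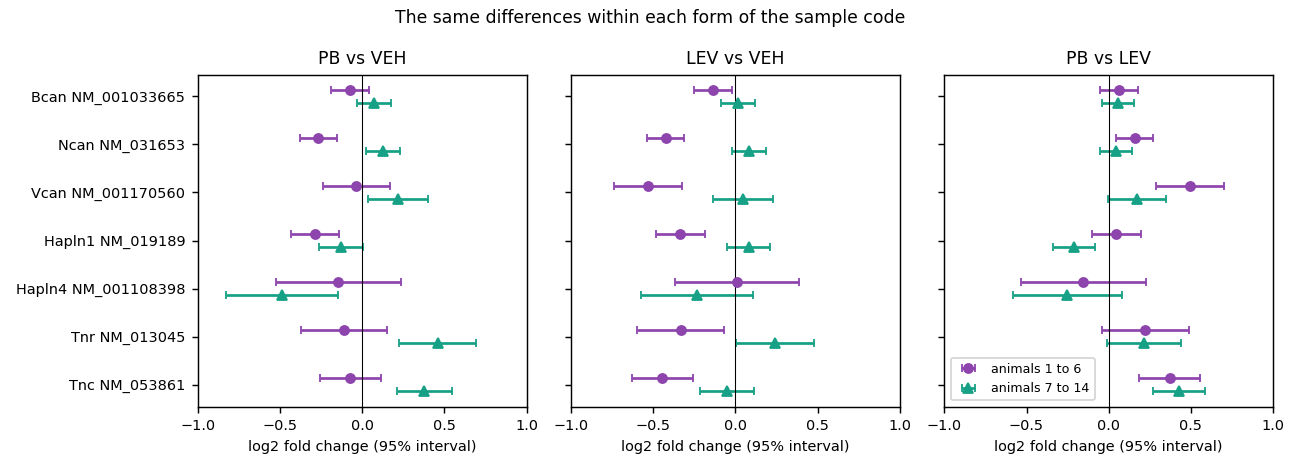
Log2 fold change (horizontal axis) with its 95% interval for the most abundant tested transcript of each gene, in animals 1 to 6 (purple circles) and animals 7 to 14 (green triangles). The LEV and VEH values of Ncan, Vcan and Hapln1 lie apart in the 2 forms, and the PB and LEV values of Tnc, 0.37 and 0.43, lie together.

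Beside the net genes themselves, the genes that make, sulfate, cut and bind the net were followed in 7 lists. The hyaluronan list (synthases, receptors and hyaluronidases) was the one with more than 1 call: 2 of its 11 tested transcripts were higher after PB than after VEH and 0 lower, where 1.93% of all transcripts were higher. Cemip2, a cell surface hyaluronidase, had 565.0 ± 55.3 (SD, n = 14) after PB and 486.9 ± 38.4 (SD, n = 13) after VEH, which is 0.21 ± 0.042 (SE) on the log2 scale, with an adjusted p of 0.00293 by edgeR. Cd44, the hyaluronan receptor, had 206.7 ± 34.8 (SD, n = 14) against 167.7 ± 23.6 (SD, n = 13), a log2 fold change of 0.30 ± 0.089 (SE) with an adjusted p of 0.0398 by edgeR. The median log2 fold change of the list was 0.17, against 0.0046 over all transcripts.

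Against LEV, Cemip2 was again higher after PB (log2 fold change 0.16), as was Hmmr, a hyaluronan-binding protein of dividing cells (0.32), with adjusted p of 0.0234 and 0.0256 by edgeR. After LEV, 0 of the 11 differed from VEH, where 0.00766% of all transcripts did. At an unadjusted p under 0.05 by edgeR there were 0, against 5.84% of all transcripts, so neither count is a result about the list. The value of Cd44 after LEV was 0.16 ± 0.090 (SE), between VEH and PB.

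Among 10 tested transcripts of chain synthesis, 1 was higher after PB than after LEV, where 1.67% of all transcripts were higher, and none differed between PB and VEH. It was B3galt6, which adds a galactose of the linker that joins the sugar chain to the protein (log2 fold change 0.16, adjusted p = 0.0305 by edgeR). Nptxr, the neuronal pentraxin receptor, was lower after PB than after VEH, at 16311 ± 848 (SD, n = 14) against 18118 ± 1691 (SD, n = 13), with 14 of 14 PB animals under the mean of VEH animals of the same code form (log2 fold change -0.15, adjusted p = 0.0145 by edgeR). It was the one called of 17 transcripts of proteins bound in the net. Of all transcripts 5.39% passed this test, and 3.46% of all transcripts were lower. A single call in either list is no result about the list.

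None of the 9 transcripts listed as other chondroitin sulfate proteoglycans, among which the link protein Hapln3 was placed, the 11 of chain sulfation, the 15 of proteases and inhibitors and the 8 of net receptors passed the test in any comparison. The nearest to it between PB and VEH were Cspg5 (0.12, adjusted p = 0.130), the sulfotransferase Chst11 (-0.16, adjusted p = 0.0710), the protease inhibitor Timp4 (-0.25, adjusted p = 0.0894) and the Nogo receptor homologue Rtn4rl1 (-0.09, adjusted p = 0.0853), each by edgeR's quasi-likelihood test. Between PB and LEV the proteoglycan Srgn was nearest (-0.29, adjusted p = 0.0506 by edgeR).

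**Figure D4:**
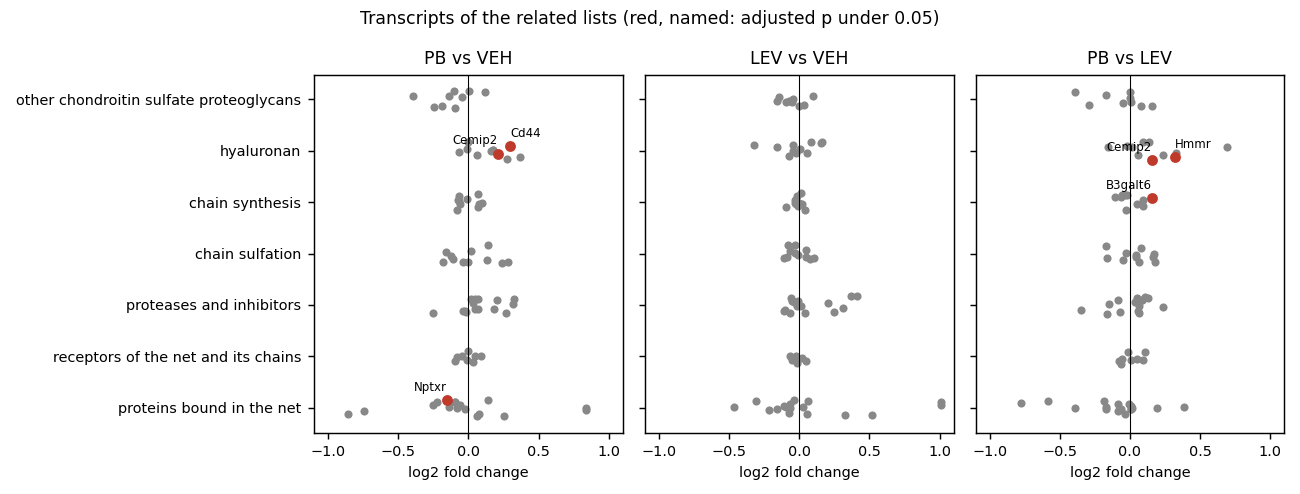
Log2 fold change (horizontal axis) of each tested transcript of 7 lists of genes that build, modify or bind the net, in the 3 comparisons, with the height of a point within its list set at random and transcripts at an adjusted p under 0.05 in red with their names. Calls stand only in the hyaluronan, chain synthesis and bound protein lists, and none between LEV and VEH.

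Markers of the cells that make and bear nets were followed in the same fits. Of 14 tested transcripts of 10 markers of net-bearing fast-spiking interneurons, 3 (of Pvalb, Kcnc1 and Kcnc2) were lower after PB than after VEH, where 3.46% of all transcripts were lower, and the summed level of the list was 3759 to 5119 in PB and 3960 to 5505 in VEH animals. Pvalb itself, the calcium-binding protein that defines these interneurons, had 37.89 ± 33.3 (SD, n = 14) after PB and 66.65 ± 18.1 (SD, n = 13) after VEH, and the log2 fold change was -0.83 ± 0.22 (SE, adjusted p = 0.0188 by edgeR). After LEV 0 of the list's 14 tested transcripts differed from VEH, where 0.00766% of all transcripts did. At an unadjusted p under 0.05 by edgeR there were also 0, against 5.84% of all transcripts. Neither count is a result about the list.

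Of 19 tested transcripts of 10 astrocyte markers, Gfap was higher after PB than after VEH (log2 fold change 0.32) and 1 transcript each of Aldoc, Slc1a3 and Fgfr3 was lower (-0.16, -0.16 and -0.17). The summed level was 43072 to 55727 in PB and 45041 to 55970 in VEH animals. Among oligodendrocyte markers Opalin was lower after PB, with a summed level of 5635 to 25869 for PB, 9309 to 25217 for VEH and 12454 to 25478 for LEV, and no marker of oligodendrocyte precursors differed in any comparison. Of 8 skeletal muscle markers, 7 had a median under 10 and only 3 were tested. All 3 were lower after PB than after VEH. The summed level of the list was 76.1 to 165.3 in PB and 116.9 to 489.7 in VEH animals. For Atp2a1 and Myh4 the highest PB animal had 7.374 and 8.726 counts, and the highest VEH animal 71.51 and 73.32. These markers passed the filter on low counts through animals of the other groups, so a lower value after PB was favoured in advance.

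Between PB and LEV, where 2.78% of all transcripts were lower after PB and 1.67% higher, more marker transcripts were called. Lower after PB were 4 of 14 for the interneurons (Pvalb, Kcnc1, Kcnc2 and Gad1), 3 of 3 for skeletal muscle, 2 of 8 for hippocampal neurons (both of Snap25) and 1 of 7 for blood vessels (Cldn5). The limit given above for Atp2a1 and Myh4 holds here too. The called Snap25 transcripts, NM_001270575 and NM_030991, had the same mean in PB animals (3714) and stand for 1 measurement. A further Snap25 transcript, NM_001270576, was tested and not called. Of 15 transcripts of mature oligodendrocyte markers 3 were lower after PB, among them Opalin and Mobp (log2 fold change -1.86 and -1.39). Between LEV and VEH 0 of these 15 passed the test, and their median log2 fold change was 0.426. At an unadjusted p under 0.05 by edgeR there were 7, against 5.84% of all transcripts. Of the astrocyte transcripts Gfap was higher (log2 fold change 0.37) and Aldoc lower (-0.14). The summed level of the interneuron list was 3759 to 5119 in PB and 4611 to 5360 in LEV animals. The part of these cell types in the differences of the net transcripts was not tested, apart from the covariate named above for Vcan.

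From animal to animal, most net genes varied together. After treatment and code form were removed, 11 of 21 pairs of genes had a positive Pearson correlation past the threshold over 41 animals and none a negative one (permutation tests with 100000 resamples, two-sided, adjusted by Benjamini-Hochberg over 56 relations computed). Ncan and Tnc had the highest, with r = 0.63 (adjusted permutation p = 0.00056) and Spearman's rho = 0.66. It was 0.58 without the 2 animals with the most extreme Ncan values, 0.87 in the first form and 0.51 in the second. The share of correlated pairs among other genes was not computed, so 11 of 21 is not shown to be particular to the net genes.

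Vcan and its neighbour Hapln1 followed, with r = 0.60 (adjusted permutation p = 0.00112), rho = 0.57, r = 0.56 without the 2 most extreme animals, and 0.63 and 0.59 within the forms. Tnc was correlated with Vcan (r = 0.52, rho = 0.53, adjusted permutation p = 0.00322) and with Hapln1 (r = 0.47, rho = 0.45, adjusted permutation p = 0.00752). Within the first and second form, r of Tnc was 0.39 and 0.59 with Vcan, and 0.10 and 0.65 with Hapln1. The neighbours Ncan and Hapln4 did not vary together, with r = -0.0049 (rho = 0.092) over all animals, -0.32 in the first form and 0.32 in the second. Ncan was also correlated with Bcan (r = 0.53, rho = 0.54) and with Tnr (r = 0.53, rho = 0.46), the adjusted permutation p being 0.00322 for r in both, and without the 2 most extreme animals these were 0.57 and 0.43.

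Hapln4 was set apart. Its only pair past the threshold was Bcan (r = 0.39, rho = 0.38, adjusted permutation p = 0.0353, and 0.39 without the 2 most extreme Bcan animals). With the 5 others its r lay between -0.255 and 0.178. Its r with the mature oligodendrocyte list was 0.38 (adjusted permutation p = 0.0438). By other measures this relation was weaker: rho was 0.28 (adjusted permutation p = 0.160) and r was 0.21 without the 2 most extreme animals. Within the forms its r was 0.61 in the first and -0.0034 in the second. For Bcan and Hapln1 the correlation was 0.51 in the first form and -0.0027 in the second, beside 0.17 over all animals.

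Set against marker lists, Tnr followed the oligodendrocyte precursor markers most closely (r = 0.65, rho = 0.65, adjusted permutation p = 0.00056, 0.62 without the 2 most extreme animals, 0.76 and 0.59 within the forms). Hapln1 and Vcan were correlated with the astrocyte list (r = 0.58 and 0.53, rho = 0.58 and 0.51, adjusted permutation p = 0.0014 and 0.00322, 0.61 and 0.45 without the 2 most extreme animals). The precursor list was also correlated with Bcan, Ncan, Vcan and Hapln1 (r = 0.52, 0.50, 0.40 and 0.39, rho = 0.51, 0.51, 0.38 and 0.39, adjusted permutation p = 0.00373, 0.0047, 0.0351 and 0.0357, and r = 0.54, 0.42, 0.43 and 0.43 without the 2 most extreme animals). Within the first and second form, r with the precursor list was 0.835 and 0.303 for Bcan, 0.563 and 0.434 for Ncan, 0.469 and 0.358 for Vcan, and 0.567 and 0.251 for Hapln1. With the astrocyte list it was 0.457 and 0.67 for Hapln1 and 0.322 and 0.67 for Vcan. Bcan was correlated with the mature oligodendrocyte list as well (r = 0.48, rho = 0.42, adjusted permutation p = 0.00695, 0.39 without the 2 most extreme animals). Within the forms this r was 0.585 and 0.45. No net gene was correlated past the threshold with the list of fast-spiking interneurons or with the choroid plexus list. The r for Tnc with the interneuron list was -0.36 (rho = -0.34, adjusted permutation p = 0.0547), and -0.19 without the 2 most extreme animals.

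**Figure D5:**
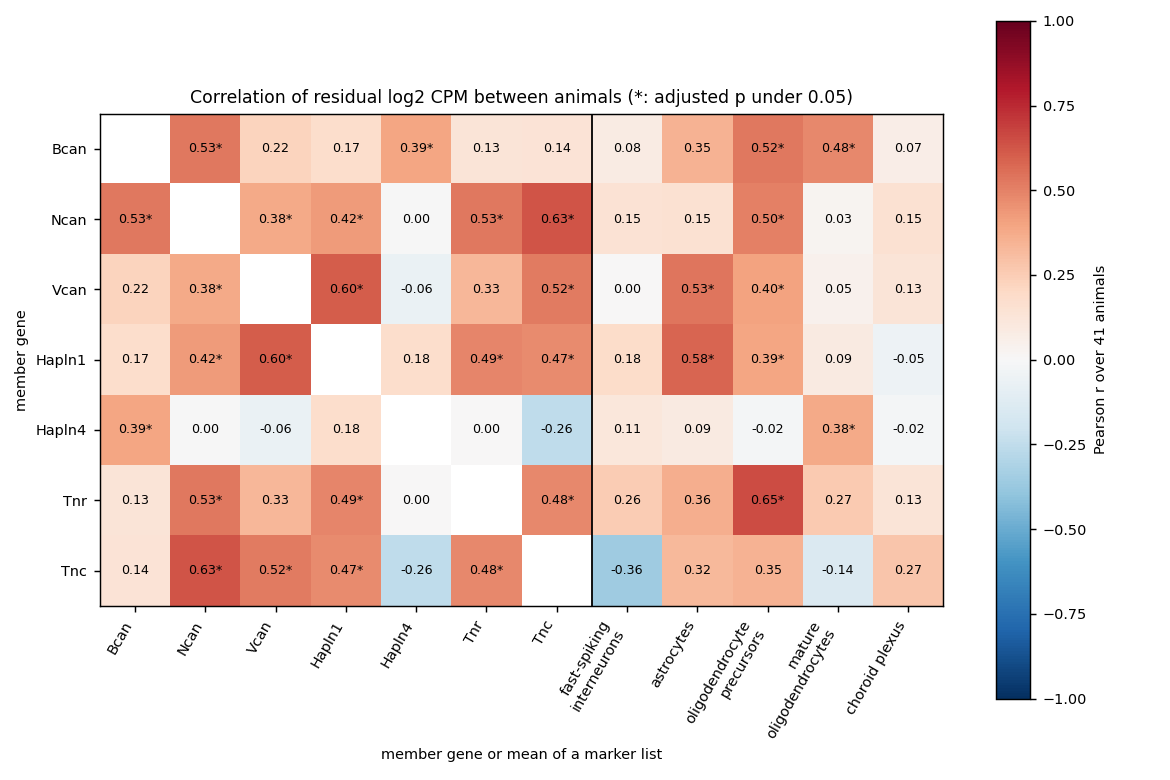
Pearson's r over 41 animals between residual log2 CPM values of the 7 tested net genes (rows and left columns) and the mean of 5 marker lists (right columns), with asterisks at an adjusted permutation p under 0.05. The row of Hapln4 holds asterisks only at Bcan and the mature oligodendrocyte list, and the other net genes are linked mostly in red.

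The transcripts most like each net gene over the 41 animals, among 13062 and as a description only, are given for each gene. Of the 21 named, 15 were still among the nearest 3 with the choroid plexus level removed. Frmd4a (named for both Ncan and Tnc), Ntrk2, Scarb2, Plekhg5 and Tmem132d were not. Hapln4 lay closest to Cabp7, a calcium-binding protein (r = 0.92), Wipf3 (0.90) and Plekhg5 (0.87). Tnr lay closest to Prkca, the alpha form of protein kinase C (0.86), the receptor Bmpr2 (0.85) and Tmem132d (0.84).

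For Ncan they were Zhx3 (r = 0.80), the glial potassium channel Kcnj10 (0.78) and Frmd4a (0.76), and for Bcan the receptor Gpr37l1 (0.74), the glutamate dehydrogenase Glud1 (0.69) and Rasl10b (0.68). Hapln1 was most like the cystine transporter Slc7a11 (r = 0.75), Scarb2 (0.68) and Bmpr1a (0.68). Vcan was most like Septin2 (0.69), the neurotrophin receptor Ntrk2 (0.68) and Sh3glb1 (0.67), and Tnc most like Uggt1 (0.71), Gpam (0.70) and Frmd4a (0.70). These animals share libraries and depth with every transcript compared.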

How the data were processed

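RNA-seq libraries were made from the hippocampi of 42 pups, each from a single animal, of which 41 were analysed. The authors aligned reads to rn6 with STAR 2.7.3a and estimated counts per RefSeq transcript in Partek, per the submitters' processing notes and the paper's methods. The deposited expected counts carry no normalization, and 13.7% of values are not whole. A second deposited table holds the authors' DESeq2 fold changes and p-values and was not used. Transcript lengths were not used here.

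The estimates were rounded to whole counts, and edgeR 4.0.16 was run in R 4.3.3 (TMM, filterByExpr with treatment as group, glmQLFit and glmQLFTest). One model held the 3 groups and the code form (first for animals 1 to 6, second for animals 7 to 14). Adjusted p is by Benjamini-Hochberg over 13062 transcripts, and a call is an adjusted p under 0.05. Intervals are 95% and, with SE, come from the fit. Totals of 9499492 to 14488134 counts set the precision. The differences between code forms were tested with a mean per treatment and form. Log2 CPM used a prior count of 2. The code was tested on simulated data.

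The members, the related and marker lists, the tests and the motifs were chosen with earlier results of these data known. Named from each related list were called transcripts, otherwise that with the smallest p, and for each net gene the 3 transcripts of other symbols with the highest r. The animal number was not used as a pairing. Residuals of animals with the same number had a median r of -0.01 between PB and VEH, -0.10 between LEV and VEH and 0.00 between PB and LEV. Over 0.1 were 4 of 13, 3 of 13 and 4 of 14 pairs. These values cannot show that such animals were not littermates. The paper balanced treatments within litters, and litter was a term in no model. Alternatives included DESeq2 1.42.0, other scalings and filters, other treatments of the code form, 2 marker lists as covariates and leaving out each animal. The correlations of net genes with marker lists, and the alternatives for the code-form results, were added after seeing the data.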

Additional observations from a re-analysis of the deposited data

Results flagged for a closer look

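The VEH animal that its label marks as excluded stood above the other VEH animals in 5 net transcripts and below them in 3, in data that no comparison above uses. Its normalized count, scaled together with all 42 libraries, was 15924 for Bcan NM_001033665, 1264 for Bcan NM_012916, 17103 for Ncan, 1730 for Tnr and 2572 for Tnc. The highest of the other VEH animals had 7041, 971.7, 11726, 1055 and 1697. Its Hapln1, Vcan NM_001170560 and Vcan NM_001170559 counts were 650.9, 730.5 and 21.98, and the lowest of the other VEH animals had 726.1, 767.8 and 24.1. The share of all transcripts outside the range of the other VEH animals was not computed, so these counts are not shown to be particular to the net genes. The paper set a control library aside for its coverage, and whether that bears on these levels was not tested. The summed levels of 5 marker lists were above those of the other VEH animals, namely oligodendrocyte precursors (17408 against at most 11886), astrocytes (60361 against 55910), meninges and fibroblasts (12569 against 8547), blood vessels (6589 against 4630) and microglia (2736 against 1993).

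For 4 results the difference from VEH was not the same in animals 1 to 6 and animals 7 to 14 by the interaction test. The log2 change between the forms was 0.3942 for Ncan after PB and, after LEV, 0.5072 for Ncan, 0.4165 for Hapln1 and 0.5768 for Vcan NM_001170560. What the forms of the sample code mark was not tested, and the same VEH animals enter all 4 results.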

How the results depend on the processing

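The counts and the net transcripts' fold changes between treatments were recomputed under 19 other settings (18 for Vcan and Bcan, which the counts summed per symbol merge) and without each animal in turn. The code-form results were recomputed under 7 settings (6 for Vcan and Bcan), chosen after seeing the data, and without each animal. The related and marker lists were not recomputed. Members called are given first and all transcripts called second. Without the code-form term the PB and VEH counts were 0 and 410, the LEV and VEH count over all transcripts 0, and the PB and LEV counts 1 and 288. With a code form by treatment term the LEV counts were 1 (Ncan) and 17. In animals 1 to 6 alone they were 2 and 64 for PB and VEH, 5 and 346 for LEV and VEH, and 81 over all transcripts for PB and LEV. In animals 7 to 14 alone, 2 members were called between PB and VEH (Tnr and Tnc), 6 transcripts between LEV and VEH, and 1 and 132 between PB and LEV. With code-form effects subtracted before DESeq2, 1095 transcripts were called between PB and VEH, 2 and 66 between LEV and VEH, and 1094 between PB and LEV. With all 14 VEH animals the counts were 0 and 392, 0 over all transcripts, and 1 and 174, and by code form 0 and 1 for PB and 0 and 6 for LEV. With the fold limit they were 0 and 79, 0 over all transcripts, and 1 and 76. Between LEV and VEH all transcripts called were 10 by DESeq2 under both settings, 0 with only the groups compared, 2 without a filter, with a mean of at least 50 counts or with the choroid plexus covariate, and 3 with the mature oligodendrocyte covariate, which left 1 and 54 between PB and LEV. The replicate block, on numbers not known to pair the animals, gave 447 transcripts between PB and VEH and 0 between LEV and VEH and changed no call of a net transcript.

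In animals 1 to 6 alone these log2 fold changes had the opposite sign: PB and VEH Tnr -0.11, Vcan NM_001170558 -0.022, NM_001170559 0.96 and NM_001170560 -0.037, Bcan NM_001033665 -0.075 and NM_012916 -0.021, and Tnc -0.073, LEV and VEH Hapln4 0.015 and Vcan NM_053663 -0.12, and PB and LEV Hapln1 0.041. In animals 7 to 14 alone they were PB and VEH Ncan 0.13, and LEV and VEH Tnr 0.24, Ncan 0.081, Hapln1 0.080, Vcan NM_001170559 -0.21, Vcan NM_001170560 0.045 and Bcan NM_001033665 0.015. PB and VEH Vcan NM_001170559 was 0.10 without the code-form term, 0.087 with the interaction, 0.12 after subtraction, 0.032 with all 14 VEH animals, 0.021 with only the groups compared and 0.00446 with the choroid plexus covariate. PB and VEH Bcan NM_001033665 was -0.00184 with the interaction, -0.00164 after subtraction and -0.13 with all 14 VEH animals, which also gave -0.029 for Bcan NM_012916 and, by code form, -0.10 and -0.013 for these after PB and -0.094 for Bcan NM_001033665 after LEV. The cause was not tested.

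Without 1 animal each, 442 to 891 transcripts and 1 to 2 members were called between PB and VEH, 0 to 5 transcripts between LEV and VEH, and 283 to 778 between PB and LEV. By code form, 0 to 1 members and 1 to 38 transcripts were called for PB and 1 to 4 members and 60 to 230 transcripts for LEV. The second member between PB and VEH was Hapln4 without PB animal 5 (-0.41, adjusted p = 0.0304 by edgeR). Signs changed for LEV and VEH Tnr NM_013045 (-0.082 to 0.012) and Vcan NM_053663 (-0.00041 to 0.11), PB and VEH Vcan NM_001170559 (-0.15 to 0.10), Bcan NM_001033665 (-0.011 to 0.022) and Bcan NM_012916 (-0.0011 to 0.065), and Hapln4 NM_001108398 between code forms (-0.029 to 0.077).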
